A study of Mus musculus with 8 samples.

Results

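The genes described are 10 targets of the transcription factor p53, taken by name: Cdkn1a, Btg2, Ccng1, Mdm2, Pmaip1, Bbc3, Bax, Fas, Gdf15 and Sesn2. They are 10 of the 32903 genes whose transcripts were summed from RNA-seq of mouse Kupffer cells, macrophages that reside in the liver. All 10 were among the 15629 genes that reached 1 TPM (a length-corrected share of all transcripts in a library) in at least 3 libraries and were tested. The 3 CCl4 libraries came from wild-type mice with liver fibrosis, which had received carbon tetrachloride in corn oil over 8 weeks, in 3 doses of 0.75 mL/kg per week. The 5 naive libraries came from wild-type mice labelled as untreated, and no group given the oil alone is among the samples. The CCl4 libraries are numbered 1, 2-4 and 3 and the naive libraries 1 to 5, and values are given in that order. Whether 2-4 is a pool, and whether libraries stand for separate animals, is not stated in the labels. The p-values therefore reflect library-to-library spread alone, which may be technical. For the age and sex of the mice and the method of cell isolation, the sources used here give nothing.

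p53 is made constantly and held low by Mdm2, a ubiquitin ligase that marks it for destruction. DNA damage and other stresses release p53 from Mdm2. It then binds pairs of a short consensus decamer in DNA and raises genes that stop the cell cycle (Cdkn1a, Btg2), trigger death (Pmaip1, Bbc3, Bax, Fas) or adapt metabolism (Sesn2), and it raises Mdm2 itself, which closes a feedback loop. Several of these genes are also raised without p53: Gdf15, Sesn2 and Pmaip1 by ATF4 in the integrated stress response, and Btg2 as an immediate early gene. In the mouse liver p53 is known for restraining the cycling of hepatocytes and for the senescence of activated stellate cells.

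The promoters are shown because p53 acts on its targets through this decamer, and the windows differ in whether they hold it. RefSeq windows on GRCm38.p6, from 250 bases before to 50 after a gene start, were matched by symbol for 9 of the 10 genes (13 windows). Pmaip1 had no window and was not searched. The p53 consensus decamer was searched letter for letter; it reads the same on both strands. It was found in 4 of these 13 windows and in 8.36% of all 32851 windows. A pair of decamers no more than 13 bases apart was found in 24 windows, 0.0731% of all, and among the 9 genes in Cdkn1a alone. The Cdkn1a window holds them 73 and 51 bases before its upstream start, 12 bases apart. In the sequences below, written 5′ to 3′ along the gene's strand, capitals mark the matched letters.
Cdkn1a, chr17:29090729-29090978, plus strand: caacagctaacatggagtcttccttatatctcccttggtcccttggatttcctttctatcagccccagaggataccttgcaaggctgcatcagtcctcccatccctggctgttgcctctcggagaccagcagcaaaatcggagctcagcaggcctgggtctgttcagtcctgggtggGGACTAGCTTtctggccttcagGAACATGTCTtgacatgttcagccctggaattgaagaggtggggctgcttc
Mdm2, chr10:117710915-117710964, minus strand: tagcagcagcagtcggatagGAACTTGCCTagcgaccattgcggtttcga
Bax, chr7:45467070-45467119, minus strand: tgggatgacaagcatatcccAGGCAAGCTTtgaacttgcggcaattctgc
Ccng1, chr11:40755442-40755491, minus strand: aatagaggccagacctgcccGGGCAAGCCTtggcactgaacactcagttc
The decamer right after the second Cdkn1a match shares 9 of its 10 letters with the consensus, so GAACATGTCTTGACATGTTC (chr17:29090928-29090947) is a nearly complete pair with no gap. The matches in Mdm2, Bax and Ccng1 stand alone, 186, 201 and 185 bases before their starts. Of the 4 genes with a match, Cdkn1a and Mdm2 were higher in CCl4 libraries, and Bax and Ccng1 did not pass the test.

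The windows were also searched on both strands for motifs of factors other than p53, chosen after the expression values were seen. The ATF4 type composite TGATGNAA was in none of the 13 windows of the 9 genes and in 3.97% of all windows. For Pmaip1, which had no window, its presence is unknown. TGACGTCA, the letters read by CREB and ATF factors, was in the Btg2 window, 166 bases before its start, and in 1.79% of all windows. TGACTCA, the letters read by AP-1, was in the Fas window in its reverse form, TGAGTCA, 211 bases before its start, and in 5.2% of all windows.
Btg2, chr1:134079294-134079341, minus strand: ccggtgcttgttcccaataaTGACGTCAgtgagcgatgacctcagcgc
Fas, chr19:34290428-34290474, plus strand: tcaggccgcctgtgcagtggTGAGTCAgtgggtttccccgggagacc
A match describes the letters of a window and does not show that a factor binds there. Only exact letters in 300 bases around each start were searched, so a window without a match does not show that the gene lacks a site.

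The libraries were checked against their label before the 10 genes were compared. Of 12 Kupffer cell markers, 11 were lower in CCl4 libraries, with a summed level of 787.9 to 982.5 TPM against 3318 to 6139 TPM in naive libraries. Clec4f, a lectin receptor specific to mouse Kupffer cells, averaged 77.7 ± 11.0 TPM in CCl4 (SD, n = 3) and 1397 ± 416 TPM in naive libraries (SD, n = 5). All 14 markers of liver sinusoidal endothelium were lower as well, at 463.4 to 821.9 TPM in CCl4 and 7063 to 13648 TPM in naive libraries, so in every naive library endothelial markers summed to more than Kupffer cell markers. Of 9 tested monocyte markers 5 were higher, with sums of 976.8 to 1307 TPM in CCl4 and 256.6 to 466.2 TPM in naive libraries. Of 8 pan-macrophage markers 4 were higher and 1 lower, with sums of 4256 to 8451 TPM in CCl4 and 1500 to 3038 TPM in naive libraries. Lyz2, the macrophage lysozyme gene and the most abundant of them, averaged 3169 ± 1540 TPM in CCl4 (SD, n = 3) and 848.0 ± 245.8 TPM in naive libraries (SD, n = 5). Dendritic cell markers (3 of 7 higher, 2 lower) summed to 334.2 to 529.7 TPM in CCl4 and 158.0 to 209.8 TPM in naive libraries. Stellate cell markers (3 of 9 higher, 1 lower) summed to 127.5 to 148.9 TPM in CCl4 and 33.8 to 102.5 TPM in naive libraries, also without overlap. Of 10 hepatocyte markers 6 were lower and 0 higher, and their sums overlapped, at 504.9 to 1415 TPM in CCl4 and 1042 to 2101 TPM in naive libraries. Neutrophil markers (of 3 tested, 1 higher and 1 lower) summed to 39.2 to 54.3 TPM in CCl4 and 25.1 to 31.4 TPM in naive libraries, without overlap. Of 5 tested B cell markers 0 were higher and 0 lower, and their sums overlapped. The sums of the monocyte, pan-macrophage, dendritic, stellate cell and neutrophil markers were thus higher in the same libraries as the genes that rose below. Their part in those results was not tested. Naive library 5 stood apart: its correlation across genes with the other naive libraries was 0.943 to 0.951, against 0.968 to 0.981 among those, and it was closer to the CCl4 libraries (0.878 to 0.888) than they were (0.813 to 0.846). In bulk RNA, fewer cells of a type and less RNA per cell cannot be told apart, and this holds for each difference below.

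In CCl4 libraries 6 of the 10 p53 targets rose (Gdf15, Pmaip1, Btg2, Bbc3, Cdkn1a and Mdm2), Fas fell, and Bax, Ccng1 and Sesn2 did not pass the test. The test was limma on log2(TPM + 1) with Benjamini-Hochberg adjustment over all tested genes and a threshold of 0.05. By the same test 15.3% of all genes were higher and 22.5% lower. The CCl4 and naive libraries did not overlap for the 6 genes that rose, where 16.3% of all genes were higher without overlap, nor for Fas, where 20.6% were lower without overlap. In either direction 36.9% of all genes did not overlap. The median log2 fold change of the 10 genes was 0.60, against -0.06 over all tested genes. Without naive library 5, the same counts of 6 higher and 1 lower were called.

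**Figure D1:**
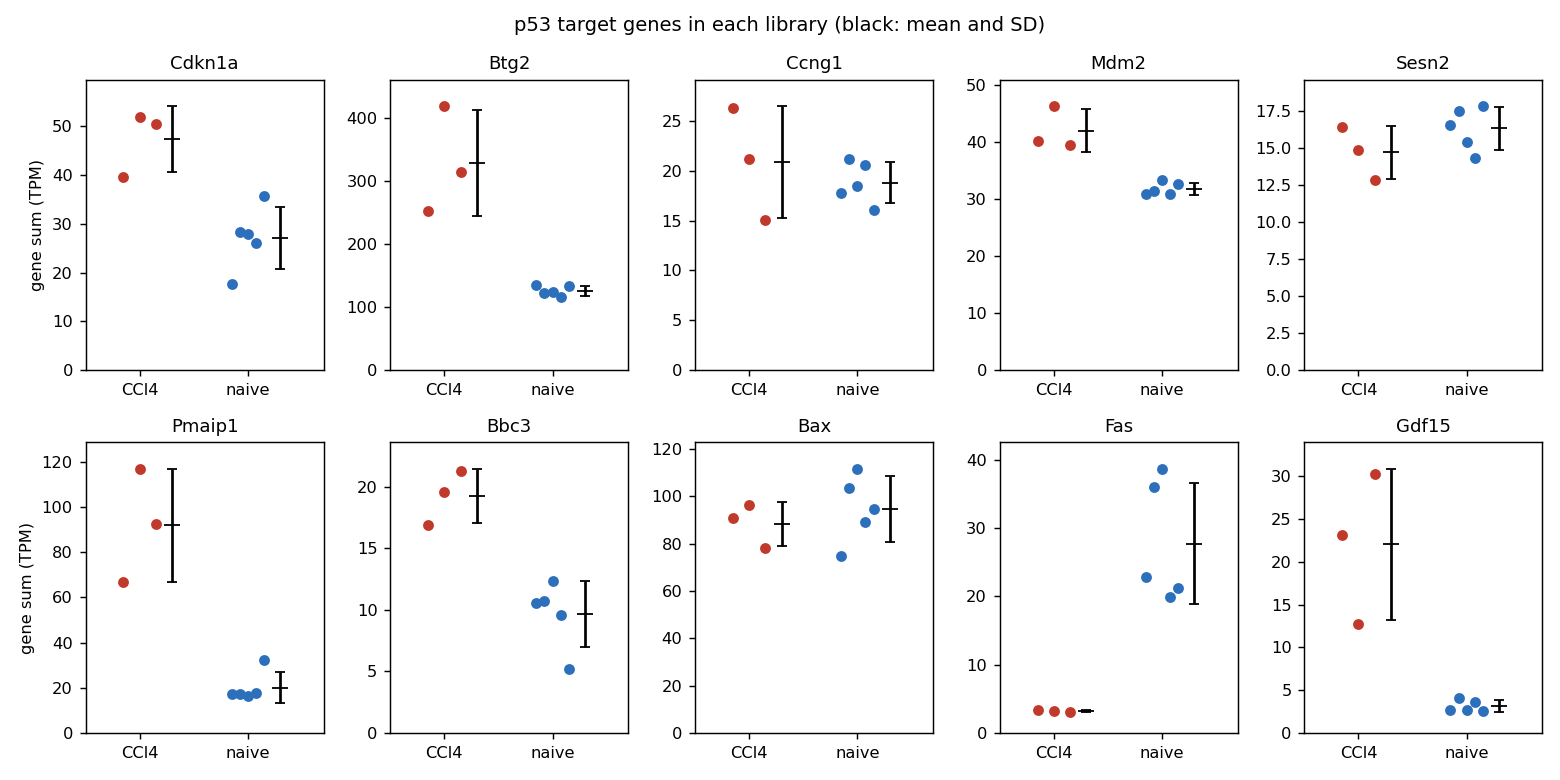
TPM of each p53 target gene (vertical axes, each from 0) in the 3 CCl4 libraries (red, left) and the 5 naive libraries (blue, right); points are libraries, ordered by replicate number, and black bars give the mean and SD. Cdkn1a, Btg2, Mdm2, Pmaip1, Bbc3 and Gdf15 have every CCl4 library above every naive library, Fas has every CCl4 library below, and Ccng1, Sesn2 and Bax overlap.

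Among the genes that halt the cell cycle, Cdkn1a and Btg2 rose and Ccng1 did not pass the test. Cdkn1a (chr17:29090979-29100722) encodes p21, the inhibitor of cyclin-dependent kinases through which p53 arrests cells. It stood at 39.7, 52.0 and 50.5 TPM in the CCl4 libraries, against 17.7, 28.2, 27.9, 26.0 and 35.6 TPM in the naive libraries. The lowest CCl4 library lay just above naive library 5, the highest of the naive ones. Its mean was 47.4 ± 6.72 TPM in CCl4 (SD, n = 3) and 27.1 ± 6.41 TPM in naive libraries (SD, n = 5). The log2 fold change was 0.81 (SE 0.204; limma, adjusted p = 0.00973).

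Btg2 (chr1:134074865-134079155), an antiproliferative protein that recruits the machinery that shortens mRNA tails, was the most abundant of the 10 in both groups. Its values were 252.4, 418.3 and 313.7 TPM in the CCl4 libraries and 134.6, 122.6, 123.2, 116.2 and 134.0 TPM in the naive libraries. The naive libraries lay close together, and the CCl4 libraries were both higher and more spread. The means were 328.2 ± 83.9 TPM in CCl4 (SD, n = 3) and 126.1 ± 7.96 TPM in naive libraries (SD, n = 5), with a log2 fold change of 1.34 (SE 0.163; limma, adjusted p = 9.43e-05). The 21 immediate early and dissociation genes, a list that holds Btg2 itself, summed to 5330 to 8078 TPM in CCl4 and 2811 to 3920 TPM in naive libraries. By limma 17 of them were higher, which is 81.0% against 15.3% of all genes, and 0 lower, against 22.5%. Their part in the result for Btg2 was not tested.

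Ccng1 (chr11:40748552-40755309), cyclin G1, brings a phosphatase to Mdm2. It was at 26.3, 21.2 and 15.1 TPM in the CCl4 libraries and 17.7, 21.1, 18.5, 20.6 and 16.1 TPM in the naive libraries. CCl4 libraries 1 and 3 were the highest and the lowest of all 8, so the groups overlapped throughout. The log2 fold change of 0.11 had a 95% interval of -0.29 to 0.52 (limma, adjusted p = 0.66), a fold of 0.819 to 1.43, and was -0.06 without CCl4 library 1.

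Mdm2 (chr10:117688875-117710758), the ligase that holds p53 low and a direct p53 target, rose slightly. It was at 40.2, 46.3 and 39.5 TPM in the CCl4 libraries, against 30.9, 31.5, 33.3, 30.9 and 32.6 TPM in the naive libraries. The naive values spanned a narrow range that all 3 CCl4 libraries exceeded. The means were 42.0 ± 3.75 TPM in CCl4 (SD, n = 3) and 31.8 ± 1.08 TPM in naive libraries (SD, n = 5), a ratio of 1.32. The log2 fold change was 0.39 (SE 0.119; limma, adjusted p = 0.0252). This call was lost on leaving out CCl4 library 2-4 (0.32, limma adjusted p = 0.0949) or naive library 1 or 4 (0.38 each, limma adjusted p = 0.0614).

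The genes of cell death split: the BH3-only genes Pmaip1 and Bbc3 rose, the effector gene Bax did not pass the test and the death receptor gene Fas fell. Pmaip1 (chr18:66458604-66465558) encodes Noxa, a BH3-only protein that binds and neutralises Mcl1. It was at 66.6, 116.7 and 92.5 TPM in the CCl4 libraries, against 17.2, 17.0, 16.2, 17.6 and 32.3 TPM in the naive libraries. Naive library 5 was nearly double the other naive libraries and still below every CCl4 library. The means were 91.9 ± 25.0 TPM in CCl4 (SD, n = 3) and 20.1 ± 6.85 TPM in naive libraries (SD, n = 5). The log2 fold change was 2.15 (SE 0.246; limma, adjusted p = 6.11e-05), and 2.33 without naive library 5.

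Bbc3 (chr7:16308398-16318334) encodes Puma, a BH3-only protein that binds all antiapoptotic BCL2 proteins. Its values were 16.9, 19.6 and 21.3 TPM in the CCl4 libraries and 10.6, 10.7, 12.4, 9.57 and 5.21 TPM in the naive libraries. Here naive library 5 was the lowest of all 8, whereas for Cdkn1a and Pmaip1 it was the highest naive library. The means were 19.3 ± 2.20 TPM in CCl4 (SD, n = 3) and 9.68 ± 2.70 TPM in naive libraries (SD, n = 5), with a log2 fold change of 0.96 (SE 0.235; limma, adjusted p = 0.00806). Without naive library 5 it was 0.78 (limma, adjusted p = 0.00176).

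Bax (chr7:45461695-45466903), which forms pores in the mitochondrial outer membrane once BH3-only proteins release it, was abundant in both groups. It was at 90.9, 96.2 and 78.1 TPM in the CCl4 libraries and 74.9, 103.3, 111.6, 89.3 and 94.8 TPM in the naive libraries. All 3 CCl4 libraries lay within the naive range. The log2 fold change of -0.09 had a 95% interval of -0.43 to 0.24 (limma, adjusted p = 0.673), a fold of 0.743 to 1.19.

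Fas (chr19:34290647-34327775), the receptor for Fas ligand, was at 3.35, 3.23 and 2.99 TPM in the CCl4 libraries, against 22.9, 36.0, 38.7, 19.9 and 21.3 TPM in the naive libraries. The lowest naive library was several times the highest CCl4 library, and the CCl4 libraries hardly differed among themselves. The means were 3.19 ± 0.183 TPM in CCl4 (SD, n = 3) and 27.7 ± 8.88 TPM in naive libraries (SD, n = 5), with a log2 fold change of -2.72 (SE 0.232; limma, adjusted p = 8.54e-06). The summed endothelial and Kupffer cell markers, given above, were also lower in every CCl4 library than in every naive one. In the naive libraries endothelial markers summed to 10270, 12902, 13648, 10667 and 7063 TPM and Kupffer cell markers to 5364, 6139, 3318, 4058 and 4187 TPM. Naive libraries 3 and 2, with the most Fas, had the highest endothelial sums. Naive library 3 had the lowest Kupffer cell sum and naive library 2 the highest. Naive library 5, with the lowest endothelial sum, had 21.3 TPM of Fas, close to the 19.9 TPM of naive library 4. The part of endothelial and Kupffer cells in the result for Fas was not tested.

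**Figure D2:**
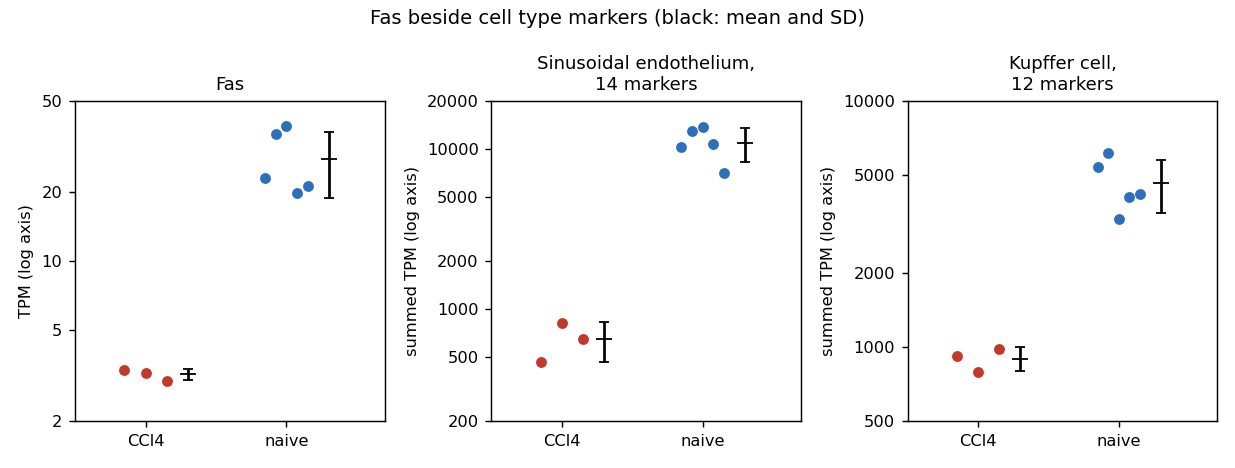
Fas (left), the sum of 14 sinusoidal endothelial markers (middle) and the sum of 12 Kupffer cell markers (right) in TPM on log axes, in the 3 CCl4 (red) and 5 naive (blue) libraries ordered by replicate number, with mean and SD in black. In all 3 panels every CCl4 library lies below every naive library, with Fas at 2.99 to 3.35 TPM in CCl4 and 19.9 to 38.7 TPM in naive libraries.

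Of the stress and metabolic genes, Gdf15 rose the most of the 10 and Sesn2 did not pass the test. Gdf15 (chr8:70629393-70632470) encodes a secreted factor of the TGF-beta superfamily that signals through the brainstem receptor GFRAL. It was at 23.1, 12.7 and 30.3 TPM in the CCl4 libraries, against 2.69, 4.08, 2.69, 3.58 and 2.62 TPM in the naive libraries. The CCl4 libraries differed widely among themselves, and library 2-4, the lowest of them, was still well above each naive library. The means were 22.0 ± 8.83 TPM in CCl4 (SD, n = 3) and 3.13 ± 0.660 TPM in naive libraries (SD, n = 5), a ratio of 7.04, with a log2 fold change of 2.41 (SE 0.256; limma, adjusted p = 3.73e-05). Gdf15 thus had its lowest CCl4 value in the library where Pmaip1, Btg2, Cdkn1a and Mdm2 had their highest. Library 2-4 also held the most T and NK cell marker TPM, with sums of 77.1, 229.5 and 61.1 TPM in the CCl4 libraries and 157.1 to 205.6 TPM in the naive libraries. Among the CCl4 libraries it also had the highest sums of B cell (146.7 TPM), dendritic cell, endothelial and immediate early genes. Its sums of pan-macrophage (4256 TPM), Kupffer cell, stellate cell and neutrophil markers were the lowest of the CCl4 libraries. The part of these differences was not tested.

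Sesn2 (chr4:132492804-132510456), sestrin 2, is a leucine sensor that restrains mTORC1. It was at 16.5, 14.9 and 12.9 TPM in the CCl4 libraries and 16.6, 17.5, 15.4, 14.3 and 17.9 TPM in the naive libraries. The groups overlapped, with CCl4 library 3 the lowest of all. The log2 fold change of -0.14 had a 95% interval of -0.46 to 0.17 (limma, adjusted p = 0.467), a fold of 0.728 to 1.13, and turned to 0.02 under quantile normalization.

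**Figure D3:**
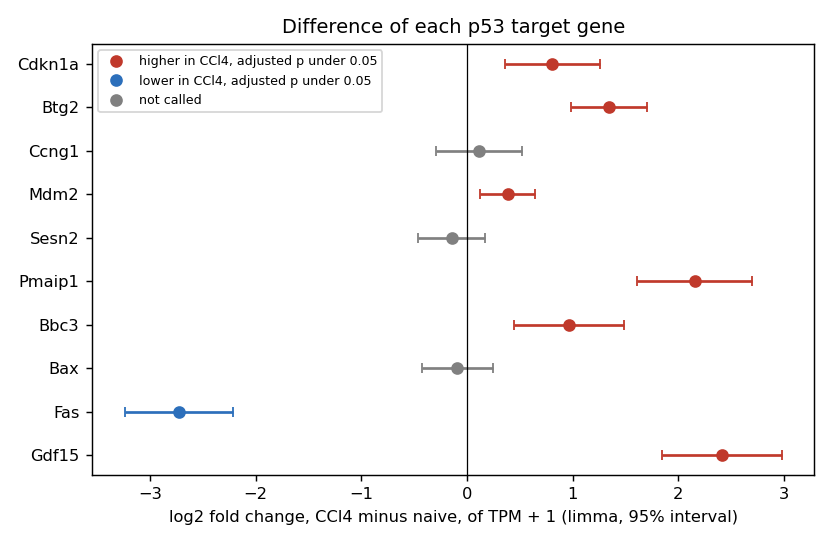
Log2 fold change of TPM + 1, CCl4 minus naive (horizontal axis), of each p53 target gene with its 95% interval from limma; red marks genes higher in CCl4, blue genes lower, and grey genes that did not pass an adjusted p of 0.05. The values run from -2.72 for Fas to 2.41 for Gdf15, and the intervals of Ccng1, Sesn2 and Bax span 0.

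TPM are corrected for transcript length, so levels can be set beside each other. In CCl4 libraries Btg2 led, followed by Pmaip1 and Bax, whose ranges over libraries overlapped, then Cdkn1a and Mdm2, which overlapped too. Gdf15, Ccng1 and Bbc3 came next with each overlapping the next, then Sesn2, and Fas was the lowest. In naive libraries Btg2 again led and was followed by Bax. Mdm2, Fas, Cdkn1a, Pmaip1, Ccng1 and Sesn2 followed with each overlapping the next in order, and Bbc3 and then Gdf15 closed the order without overlap. Fas, the lowest of the 10 in CCl4 libraries, thus ranked 4 by mean level in naive libraries. Gdf15 ranked 6 in CCl4 libraries and was the lowest in naive libraries.

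The deposited values are per transcript, and for Cdkn1a the gene sum was divided between a pair of starts 2790 bases apart. The p53 decamers shown above lie just before the upstream start, at 29090979. Its transcript was at 32.2, 39.8 and 40.9 TPM in the CCl4 libraries and 17.5, 28.2, 27.9, 21.1 and 30.8 TPM in the naive libraries, and did not pass the test over all transcripts (log2 fold change 0.59; limma, adjusted p = 0.0784). The transcript from the downstream start, at 29093769, was at 7.51, 12.2 and 9.62 TPM in the CCl4 libraries. In naive libraries 1, 2 and 3 it was listed at 0.146, 0.000155 and 0 TPM, and in naive libraries 4 and 5 at 4.92 and 4.80 TPM. Its log2 fold change was 2.35 (SE 0.704; limma, adjusted p = 0.0462), where 7.99% of 29401 tested transcripts were higher. It made up 18.9% to 23.4% of Cdkn1a TPM in CCl4 and 0% to 18.9% in naive libraries. The division of reads between transcripts that share most of their sequence is an estimate by kallisto, and a listed 0 may be a failed estimate. Whether the change differed between the transcripts was not tested.

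**Figure D4:**
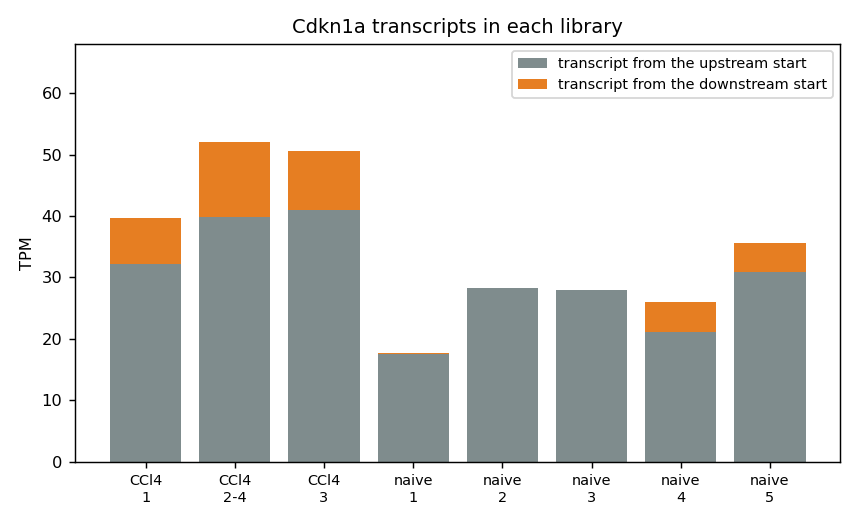
TPM of the Cdkn1a transcripts (vertical axis) in each of the 3 CCl4 and 5 naive libraries, stacked: grey for the transcript from the upstream start and orange for that from the downstream start. The orange part is 7.51 to 12.2 TPM in CCl4 libraries, and 4.92 and 4.80 TPM in naive libraries 4 and 5 with at most 0.146 TPM in the other naive libraries.

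For Fas both transcripts above the filter fell, the main one with a log2 fold change of -2.65 (limma, adjusted p = 0.000172) and the other with -1.90 (limma, adjusted p = 0.00573), where 12.1% of transcripts were lower. The main Gdf15 transcript rose (2.46; limma, adjusted p = 0.00305), and so did both main Bbc3 transcripts (0.99 and 1.12; limma, adjusted p = 0.0344 and 0.0142). The other tested Bbc3 transcripts did not pass (log2 fold changes -0.28 and 0.29, limma adjusted p = 0.637 and 0.609). In naive library 3 the main Gdf15 transcript held only 19.3% of Gdf15 TPM, and another held 80.7%. As for Cdkn1a, the division between transcripts is an estimate. None of the 3 Mdm2 transcripts passed the test on its own. They had log2 fold changes of 0.67, 0.45 and 0.20 (limma, adjusted p = 0.0758, 0.116 and 0.364).

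p53 itself and Mdm4, the Mdm2 relative that blocks its transactivation, gave no call. Trp53 averaged 42.0 ± 5.47 TPM in CCl4 (SD, n = 3) and 43.8 ± 4.24 TPM in naive libraries (SD, n = 5), with a log2 fold change of -0.06 and a 95% interval of -0.36 to 0.24 (limma, adjusted p = 0.753). Mdm4 averaged 53.8 ± 12.7 and 53.4 ± 4.74 TPM in CCl4 and naive libraries (log2 fold change -0.01; limma, adjusted p = 0.968). The sign of both differences turned under other scalings. p53 is controlled mainly as a protein, which RNA does not show. Of 15 tested genes of p53 and its regulators, 3 were higher and 2 lower, which is 20% and 13.3% against 15.3% and 22.5% of all genes. Errors from here on are SD over 3 CCl4 and 5 naive libraries. Ep300, an acetyltransferase and coactivator of p53, was at 62.6 ± 4.31 TPM in CCl4 and 35.9 ± 3.87 TPM in naive libraries (log2 fold change 0.79; limma, adjusted p = 0.000746). Rchy1, the ligase Pirh2 and another p53 target that degrades it, was at 33.7 ± 4.37 and 21.1 ± 0.804 TPM in CCl4 and naive libraries (0.64; limma, adjusted p = 0.00267). Chek2, a DNA damage kinase chosen here after its values were seen, had a log2 fold change of 0.56 (limma, adjusted p = 0.0406), a call lost without CCl4 library 1 or 3 or naive library 1, 2 or 3 (limma, adjusted p = 0.0511 to 0.133). Hipk2, a kinase that phosphorylates p53 towards apoptosis, fell to 37.8 ± 3.46 TPM in CCl4, against 61.7 ± 9.12 TPM in naive libraries (-0.68; limma, adjusted p = 0.00433). Cdkn2a, which encodes the Mdm2 inhibitor p19Arf and the kinase inhibitor p16Ink4a, was low in both groups, at 0.702 ± 0.330 and 2.18 ± 1.07 TPM in CCl4 and naive libraries (-0.85; limma, adjusted p = 0.0386), and this call was lost without CCl4 library 1 or 2-4 or naive library 1, 2 or 4 (limma, adjusted p = 0.0749 to 0.113).

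In a wider list of p53 targets the shares called were near those of all genes. Of 38 tested further p53 targets, 6 were higher, which is 15.8% against 15.3% of all genes, and 10 were lower, which is 26.3% against 22.5%. Their median log2 fold change was 0.01. Under quantile normalization, which moved the median of all genes to 0.11, 11 were higher and 9 lower. Ak1, Zfp365 and Trp53cor1 were too low to be tested.

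Plk2, a polo-like kinase of the stress response, fell the most of these, to 51.9 ± 6.98 TPM in CCl4 against 237.6 ± 53.8 TPM in naive libraries (log2 fold change -2.15; limma, adjusted p = 1.6e-05). Ephx1, an epoxide hydrolase of xenobiotic metabolism, fell to 11.8 ± 2.14 TPM in CCl4 against 53.05 ± 15.4 TPM in naive libraries (-2.05; limma, adjusted p = 4.38e-05). Def6, a guanine nucleotide exchange factor of immune cells, rose to 34.8 ± 5.33 TPM in CCl4 against 8.57 ± 2.65 TPM in naive libraries (1.93; limma, adjusted p = 4.74e-05). Psrc1, a spindle protein, rose to 3.96 ± 0.789 TPM in CCl4 against 0.633 ± 0.146 TPM in naive libraries (1.60; limma, adjusted p = 4.8e-05). The genes named next were chosen after their values were seen. Ddit4, an mTORC1 inhibitor also raised by ATF4, rose by 1.34 on the log2 scale, the polo-like kinase gene Plk3 by 1.09 and the mitochondrial reductase gene Fdxr by 0.81. Xpc, which recognises damaged DNA for repair, had a log2 fold change of -1.70 and Sfn, the 14-3-3 protein that holds cells before mitosis, of -1.38, and both were called lower. Zmat3, an RNA-binding protein (-0.67), and the receptor gene Eda2r (-1.16) were called lower too. Tnfrsf10b, a death receptor gene as is Fas, did not pass the test (0.21; limma, adjusted p = 0.393). Plk2 and Plk3 thus moved in opposite directions.

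**Figure D5:**
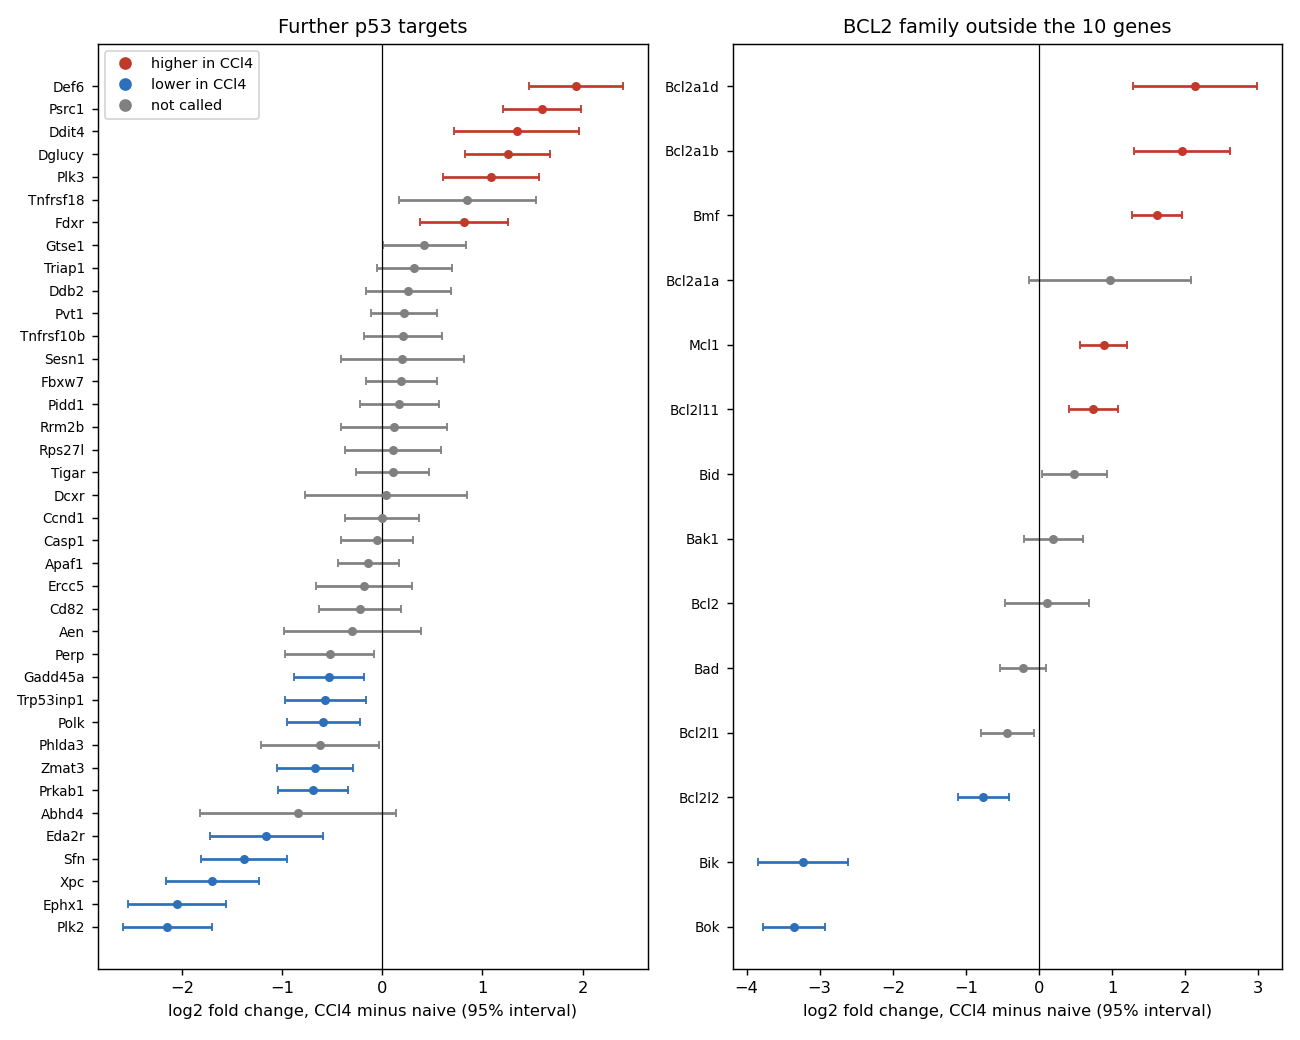
Log2 fold change, CCl4 minus naive, with 95% intervals from limma, of the 38 tested further p53 targets (left) and of 14 tested BCL2 family genes other than Bax, Bbc3 and Pmaip1 (right), each sorted by value; red is higher in CCl4, blue lower, grey not called. On the left, 6 genes are red and 10 blue, from -2.15 for Plk2 to 1.93 for Def6, and on the right 5 are red and 3 blue, from -3.35 for Bok to 2.14 for Bcl2a1d.

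The rest of the BCL2 family, in which Pmaip1, Bbc3 and Bax act, had calls in both directions. Of 14 tested genes 5 were higher, which is 35.7% against 15.3% of all genes, and 3 lower, which is 21.4% against 22.5%, with Hrk below the filter. Bmf, another BH3-only gene, rose to 24.9 ± 1.04 TPM in CCl4 against 7.51 ± 1.19 TPM in naive libraries (log2 fold change 1.62; limma, adjusted p = 1.84e-05), and Bcl2l11, the BH3-only gene Bim, had a log2 fold change of 0.74 (limma, adjusted p = 0.0029). The antiapoptotic gene Bcl2a1b was at 166.9 ± 37.1 TPM in CCl4 and 44.7 ± 21.7 TPM in naive libraries (1.95; limma, adjusted p = 0.000453), with naive library 5 apart at 82.8 TPM, though the Bcl2a1 genes are near-identical copies whose reads the quantification could have divided wrongly. A further copy, Bcl2a1a, was at 9.70 to 19.4 TPM in CCl4 and 3.89 to 25.4 TPM in naive libraries and did not pass the test (0.97; limma, adjusted p = 0.155). Without naive library 5, which held its highest value of all 8, it did (1.42; limma, adjusted p = 0.000551). Mcl1, the antiapoptotic partner of Noxa, averaged 421.4 ± 60.7 TPM in CCl4 and 226.6 ± 22.6 TPM in naive libraries (0.89; limma, adjusted p = 0.000727). So both Pmaip1 and the gene of the protein it neutralises rose in the CCl4 libraries. Bok, a BAX relative, fell to 4.995 ± 1.43 TPM in CCl4 against 59.3 ± 9.16 TPM in naive libraries (-3.35; limma, adjusted p = 1.59e-06). Bik, a BH3-only gene, fell to 2.29 ± 1.78 TPM in CCl4 against 27.6 ± 4.76 TPM in naive libraries (-3.23; limma, adjusted p = 9.44e-06), and Bcl2l2 had a log2 fold change of -0.76 (limma, adjusted p = 0.00315). The BH3-only genes therefore did not move as a group: Pmaip1, Bbc3, Bmf and Bcl2l11 rose, Bik fell, and Bid and Bad did not pass the test.

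Beside the rise of Cdkn1a, genes that p53 and p21 repress through the DREAM complex were not lower. Of 20 such cell cycle genes 15 were higher, which is 75.0% against 15.3% of all genes, and 0 lower, and their median log2 fold change was 0.92, against -0.06 over all genes. Mki67, the proliferation marker, averaged 33.8 ± 9.97 TPM in CCl4 and 11.0 ± 2.77 TPM in naive libraries (1.53; limma, adjusted p = 0.000377). Ccna2, cyclin A2, averaged 11.3 ± 3.19 TPM in CCl4 and 4.08 ± 0.622 TPM in naive libraries (1.26; limma, adjusted p = 0.000479). The kinase gene Bub1 (1.20) and the transcription factor gene Foxm1 (0.90) rose as well. Of 15 other CDK inhibitors and G1 regulators, 4 were higher and 4 lower, 26.7% each against 15.3% and 22.5% of all genes. Cdkn1b, the p21 relative p27, averaged 60.2 ± 4.46 TPM in CCl4 and 39.6 ± 4.11 TPM in naive libraries (0.60; limma, adjusted p = 0.00422). Cdkn1c, the relative p57, fell to 1.84 ± 1.52 TPM in CCl4 against 19.0 ± 5.93 TPM in naive libraries (-2.92; limma, adjusted p = 0.000128). Cdkn2b, the inhibitor p15, averaged 0.864 ± 0.688 TPM in CCl4 and 3.26 ± 0.653 TPM in naive libraries (-1.24; limma, adjusted p = 0.00219). Cdk6, the kinase p15 inhibits, rose by 0.87 on the log2 scale. Which cells carried Cdkn1a and which the cell cycle genes cannot be told from bulk RNA.

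Of 6 relatives of Btg2, Ccng1 and Sesn2, 3 were higher, which is 50% against 15.3% of all genes, and 0 lower, against 22.5%. Only 1 was higher without CCl4 library 1 or 2-4. Without naive library 5, 1 was lower. Btg1, the closest relative of Btg2, averaged 220.1 ± 48.5 TPM in CCl4 and 96.6 ± 4.51 TPM in naive libraries (log2 fold change 1.16; limma, adjusted p = 0.00012). Tob2 had 0.44 (limma, adjusted p = 0.0203) and Ccng2, the relative of Ccng1, 0.56 (limma, adjusted p = 0.0233). The Tob2 call was lost without CCl4 library 1 or 2-4 or naive library 1 (limma, adjusted p = 0.0514 to 0.0692), and the Ccng2 call without CCl4 library 1 or 2-4 or naive library 4 (limma, adjusted p = 0.0566 to 0.0916). Cyclin G2 thus passed the test where cyclin G1 did not, though the difference between them was not tested.

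Genes raised by ATF4 had calls in both directions. Of 14 tested, a list that holds Gdf15, Sesn2 and Ddit4, 5 were higher, which is 35.7% against 15.3% of all genes, and 4 lower, which is 28.6% against 22.5% (1 lower without CCl4 library 3). Their log2 fold changes ran from -1.70 to 2.82, with a median of 0.15. Atf3, a stress transcription factor that is also an immediate early gene, averaged 448.1 ± 152.3 TPM in CCl4 and 60.6 ± 10.5 TPM in naive libraries (2.82; limma, adjusted p = 6.31e-06). Chac1, a glutathione-degrading enzyme and a defining ATF4 target, fell to 0.279 ± 0.185 TPM in CCl4 against 3.21 ± 1.01 TPM in naive libraries (-1.70; limma, adjusted p = 0.000151). Of the immediate early genes, Egr2 had a log2 fold change of 2.30, Zfp36 of 1.66 and Ier5 of 1.35, beside 1.34 for Btg2.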

How the data were processed

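RNA from 3 CCl4 and 5 naive libraries of mouse Kupffer cells was quantified by the authors with kallisto 0.42.4, with GRCm38 as the genome build, per the submitters' processing notes; libraries were made from 1.5 ug of total RNA with a directional kit, per the labels' protocols. The authors deposited TPM for each RefSeq transcript. TPM keep no depth, so the depth is unknown and precision comes from the spread between libraries. Of 107384 transcripts, 86722 matched a gene of RefSeq GRCm38.p6 by accession without version and were summed to 32903 genes; the 20662 unmatched ones, with 6.06% to 7.58% of TPM, were left out. Genes reaching 1 TPM in 3 or more libraries were tested on log2(TPM + 1), a scale that understates the change of low genes, with limma 3.58.1 in R 4.3.3 (lmFit, eBayes with trend, group alone, two-sided), Benjamini-Hochberg adjustment over all tested genes and a threshold of 0.05. Sums and figures used Python 3.11.15, pandas 2.3.3, numpy 2.4.6 and matplotlib 3.10.9. The fit was tested on simulated data.

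The members and lists were chosen with earlier results of these data known. The rule for named genes took all 10 members, the 4 genes with the smallest limma p in every other gene list, Trp53 and Mdm4, the 2 most abundant markers of each cell type and the 3 genes most like Cdkn1a and Mdm2. The alternatives changed the pseudocount, the filter, the scaling, the variance trend or the library weights, added a replicate block, tested the most abundant transcript of each gene or left out each library. No pair of libraries had the same TPM above 0 in more than 1 tested gene.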

Additional observations from a re-analysis of the deposited data

Results flagged for a closer look

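Naive library 5 lay apart from the other 4 naive libraries for several genes. Pmaip1 was at 32.3 TPM there and 16.2 to 17.6 TPM in the other naive libraries, and the antiapoptotic gene Bcl2a1b at 82.8 TPM, with 30.3 to 39.7 TPM in the others; its near-copy Bcl2a1d was at 31.0 TPM, with 7.95 to 12.2 TPM in the others. A further copy, Bcl2a1a, was at 25.4 TPM there, with 3.89 to 5.67 TPM in the other naive libraries, and so lay above all 3 CCl4 libraries (9.70 to 19.4 TPM). The monocyte chemokine receptor gene Ccr2 was at 38.2 TPM (11.6 to 16.8 TPM in the others) and the dendritic cell lectin gene Cd209a at 14.7 TPM (0.444 to 1.15 TPM in the others). Apart from Bcl2a1a, these values of naive library 5 lay above the other naive libraries and below all 3 CCl4 libraries. In naive library 3 the BH3-only gene Bik was at 35.9 TPM, against 24.1 to 27.3 TPM in the other naive libraries. Each was marked because its gap to the nearest library, divided by the range of the group, passed the 95% limit of Dixon's test for 5 values, 0.71. In all, 89 genes and marker sums were examined in the naive libraries and 7 marked, where chance marks about 1 in 20. The CCl4 libraries were not examined in this way. The Bcl2a1 copies may share reads, so the marks are not all separate events. Explanations were not tested.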

How the results depend on the processing

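Over the 20 alternatives, Gdf15, Fas, Pmaip1 and Btg2 kept their call and direction, with log2 fold changes of 1.68 to 2.89, -3.02 to -1.96, 1.95 to 2.37 and 1.12 to 1.52. At the level of the most abundant transcript, Cdkn1a (0.59, limma adjusted p = 0.0784) and Mdm2 (0.20, limma adjusted p = 0.364) lost their call, and 1480 genes were higher and 2314 lower, where gene sums gave 2393 and 3513. Under quantile normalization 4011 genes and 11 further p53 targets were higher (6 with TPM as deposited), and 56.5% of called genes were higher in place of 40.5%. Leaving out each library gave 5 to 6 members higher and 1 lower each time, 5 to 7 further targets higher and 7 to 13 lower, and 1882 to 2568 genes higher and 2580 to 4170 lower. Whether the shared numbers 1 and 3 pair the samples is not known. Libraries of the same number had a correlation of deviations from their group means of -0.0414 to 0.0772. With groups of 3 and 5 libraries, these values cannot settle it. With the number as a replicate block, 4 members were higher and 1 lower, 5 further targets higher and 9 lower, and 1874 genes higher and 3438 lower. Mdm2 (0.31, limma adjusted p = 0.499) and Bbc3 (0.68, limma adjusted p = 0.0794) were not called with the block. Only the numbers 1 and 3 occur in both groups, so the block takes each difference from the libraries of those numbers alone. The SE of Mdm2 was 0.303 with it and 0.119 without. Calls with the block are therefore not comparable with those of the fit to all libraries, and they do not show whether the libraries are paired. Signs turned for genes that were not called. On leaving out each library, Ccng1 ranged from -0.062 (without CCl4 library 1) to 0.32, the B cell gene Cd79b from -0.45 to 0.038 (without CCl4 library 3), Trp53 from -0.16 to 0.015 (without CCl4 library 3) and Mdm4 from -0.19 to 0.083 (positive without CCl4 library 1 or 3 or naive library 2, 3 or 5). Under quantile normalization Sesn2 was at 0.020, Trp53 at 0.035 and Mdm4 at 0.10, and under median-of-ratios rescaling Trp53 was at 0.026 and Mdm4 at 0.078. Of 1501 values of single genes, 1410 kept direction and call, 28 gained a call, 50 lost it and 13 turned. Among the other lists, quantile normalization gave 5 higher regulators of p53 (3 as deposited) and 1 lower (2), median-of-ratios rescaling and quantile normalization 7 higher CDK inhibitors and G1 regulators (4), rescaling to protein-coding genes 5 lower BCL2 family genes (3), and a mean of at least 5 TPM 1 lower ATF4 target (4). With the block 1 regulator was higher and 0 lower, and 1 of the BTG, TOB and cyclin G relatives higher (3). With the 5 TPM filter 11 ATF4 targets were tested in place of 14. The lower genes Chac1, Trib3 and Asns, below 5 TPM in every library, were left out by it. Apart from this and the transcript level, whose transcripts are a part of each gene, the cause of these changes was not tested. TPM carry no depth, so counting error is unknown.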

Other observations

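Over the 8 libraries, after the group means were subtracted, the genes most like Cdkn1a among 7942 genes with a mean of at least 10 TPM were Tnip1, an inhibitor of NF-kappaB signalling (Pearson r = 0.967), the phospholipid synthesis gene Pgs1 (0.956) and Hspa5, the chaperone BiP of the endoplasmic reticulum (0.945). Hspa5 averaged 765.4 ± 115.4 TPM in CCl4 (SD, n = 3) and 508.2 ± 114.3 TPM in naive libraries (SD, n = 5). It was called higher (log2 fold change 0.61, limma adjusted p = 0.0382). Tnip1, the most like Cdkn1a, was called lower (-0.56, limma adjusted p = 0.0434), and Pgs1 did not pass the test (0.43, limma adjusted p = 0.0977). Those most like Mdm2 were Cd82 (0.987), a tetraspanin also listed among the further p53 targets, Serpinb6b (0.985) and Herc3 (0.982). None of them passed the test between groups, with log2 fold changes of -0.22, -0.73 and -0.21 (limma adjusted p = 0.374, 0.057 and 0.432). The correlations are descriptions of 8 points chosen from many genes, which share library and scaling, and they carry no p.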
